A study of Mus musculus with 2 samples.

Results

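The 41 imprinted genes described here were chosen by name: every gene of the GENCODE M21 annotation whose symbol is on a list of well-known imprinted genes of the mouse, 34 of them protein-coding and 7 noncoding, of 55536 annotated genes in all. They were measured in polyadenylated RNA from the midbrain of mouse embryos at day 12.5 of gestation (E12.5). The tissue came from the strain B6NCrl, healthy embryos of both sexes were pooled, and the material formed a single group with 2 biological replicates: the first pool held tissue of 120 embryos and the second of 88. The labels name no treatment and no engineered allele. Both parents of an embryo belonged to the same inbred strain, and the values are sums over both parental copies, so which copy gave the RNA cannot be told apart here. Levels are given in TPM, transcript abundance per length scaled to a fixed total in each library, and a gene was counted as detected at 1 TPM or more in both libraries. Annotated genes received 29056772 estimated reads in replicate 1 and 37122519 in replicate 2.

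Imprinted genes lie in clusters in which DNA methylation set in the egg or the sperm at an imprinting control region decides which parental copies are transcribed. Many clusters pair protein-coding genes with a long noncoding RNA made from the opposite parental copy, and in some of them that RNA, or the act of transcribing it, keeps its neighbours silent. Genes expressed from the paternal copy often promote growth of the fetus and genes expressed from the maternal copy often restrain it. In the brain several of them act in neurons and their progenitors, and for a few, such as Ube3a and Grb10, which copies are expressed depends on cell type or promoter.

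Most of these genes were active in the midbrain, and several were among its most abundant transcripts. Of the 41 members, 36 were detected, or 87.8%, against 59.4% of the 22028 protein-coding genes and 11.3% of the 10155 long noncoding genes of the annotation. All 7 noncoding members were detected and 29 of the 34 coding ones. Slc22a18, Zim1, Rtl1, Dio3 and Rasgrf1 lay below the limit in at least 1 library. The median member stood at 30.7 TPM in replicate 1 and 36.9 TPM in replicate 2, while the median protein-coding gene stood at 4.32 and 4.58 TPM. Of the 41 members, 13 had a mean level of 100 TPM or more, which is 31.7% of them, and 35.3% of the coding members reached that level against 7.43% of all protein-coding genes. The summed level of the members was 8245 TPM in replicate 1 and 8083 TPM in replicate 2, and they took 0.948% and 0.926% of the reads of annotated genes. Nnat, Gnas, Cdkn1c, Meg3 and Mest together made up 75.6% of that sum in replicate 1 and 74.5% in replicate 2. The plot of levels by gene and cluster shows the whole range.

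**Figure D1:**
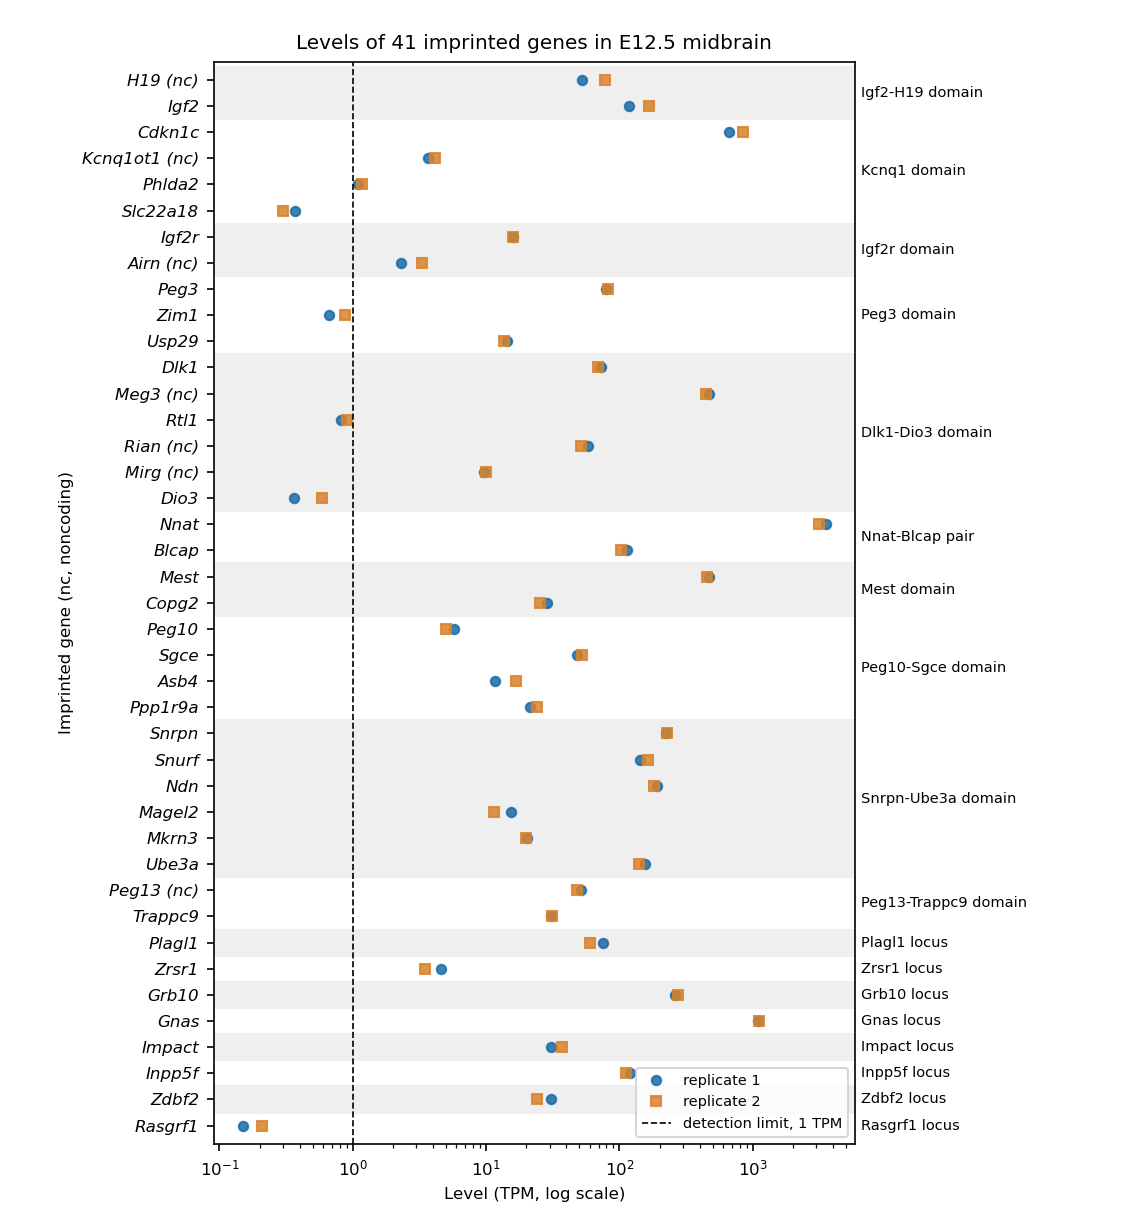
Level of each of the 41 imprinted genes in TPM (log axis) in replicate 1 (circles) and replicate 2 (squares), grouped by cluster; nc marks noncoding genes and the dashed line is the detection limit of 1 TPM. Levels ran from 0.15 TPM for Rasgrf1 in replicate 1 to 3538 TPM for Nnat in replicate 1, and the 5 genes that were not detected lie left of the line.

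The most abundant member was Nnat (ENSMUSG00000067786.16, mm10 chromosome 2, 157560078 to 157562522, plus strand), which encodes neuronatin, a small membrane protein of the endoplasmic reticulum expressed in developing neurons. Nnat stood at 3538 TPM in replicate 1 and 3170 TPM in replicate 2 and ranked 13 among protein-coding genes. It lies within an intron of Blcap (ENSMUSG00000067787.10, 157556362 to 157571274, minus strand), a gene that is expressed from both parental copies in many tissues. Blcap stood at 114 and 103 TPM, so Nnat exceeded its host gene 31.0-fold in replicate 1 and 30.7-fold in replicate 2. The ratio of this pair was among the steadiest, at 4.95 ± 0.01 on the log2 scale (mean ± SD, n = 2). Of Nnat, the transcript Nnat-202, which codes for 81 residues, took 59.6% and 60.2% of the gene's TPM. Nnat-205, with 2 exons in place of 3 and a reading frame of 54 residues, took 29.9% and 29.6%. The estimated proportion of these splice forms was thus nearly the same in both libraries.

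The second most abundant member was Gnas (ENSMUSG00000027523.19, chromosome 2, 174284320 to 174346744, plus strand), the gene of the stimulatory G protein alpha subunit, which links hormone receptors to adenylyl cyclase. Gnas stood at 1088 TPM in replicate 1 and 1109 TPM in replicate 2. The locus holds several promoters, of which those of the neuroendocrine protein NESP55 and of the extra-large form XLαs are imprinted in all tissues, whereas the promoter of the G protein subunit itself is imprinted in only some. Transcripts that begin about 45.7 kb downstream of the first annotated start, the group of Gnas-208, took 97.9% of the gene's TPM in replicate 1 and 97.5% in replicate 2. Gnas-208, which codes for 394 residues, alone took 85.8% and 84.8%. Transcripts from the first annotated start took 0.37% and 0.49%, and those that begin 13.5 kb downstream took 0.14% and 0.15%. The start group 43.25 kb downstream took 1.00% and 1.04%. These shares are estimates that the authors' quantification derived from reads along whole transcripts, and no start was measured directly. The antisense RNA Nespas, which runs across the upstream promoters and shares 988 exonic bases with Gnas, stood at 7.37 and 7.34 TPM.

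In the Kcnq1 cluster on chromosome 7, the coding gene Cdkn1c far exceeded its neighbours. Cdkn1c (ENSMUSG00000037664.13, 143458339 to 143461050, minus strand) encodes p57, an inhibitor of cyclin-dependent kinases that takes progenitors out of the cell cycle, and is expressed from the maternal copy. Cdkn1c stood at 668 TPM in replicate 1 and 839 TPM in replicate 2. The long noncoding RNA of the cluster, Kcnq1ot1 (143203458 to 143296549, minus strand), is made from the paternal copy as a single unspliced transcript of 93092 bases and stood at 3.68 and 4.13 TPM. Per length Cdkn1c was 182-fold and 203-fold above Kcnq1ot1, yet the length of Kcnq1ot1 gave it 6392 and 9062 estimated reads against 17562 and 27767 for Cdkn1c. Phlda2, which limits growth of the placenta, was at 1.10 and 1.17 TPM with 12 and 15 reads. Slc22a18, a transporter of the same cluster, was at 0.37 and 0.30 TPM with 8 and 10 reads. Thus an abundant gene and genes near or below the detection limit lay side by side, and the 10 other annotated genes that lie wholly between the outermost of these members include none annotated as protein-coding. The coding gene Kcnq1, a potassium channel gene that runs beyond this span and shares 121 exonic bases with Kcnq1ot1 on the other strand, stood at 1.53 and 0.77 TPM.

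The Igf2-H19 cluster lies on the same chromosome. Igf2 (ENSMUSG00000048583.16, 142650766 to 142666816, minus strand) encodes insulin-like growth factor 2, a fetal growth factor expressed from the paternal copy and known in the embryonic brain from choroid plexus and meninges. Igf2 stood at 117 TPM in replicate 1 and 165 TPM in replicate 2. H19 (142575529 to 142578143, minus strand), the maternally expressed noncoding RNA that shares enhancers with Igf2 and is the precursor of a microRNA, stood at 52.5 and 77.7 TPM. Igf2 was 2.24-fold above H19 in replicate 1 and 2.13-fold in replicate 2, so the ratio between the partners was kept while both differed between the libraries. Several Igf2 promoters are known, and the estimated shares were spread over several annotated starts, not all of them at RefSeq starts. Igf2-208, a transcript without a reading frame that begins 13.8 kb downstream of the first annotated start, took 28.5% and 31.6% of the TPM. Igf2-203, a coding transcript of 650 bases from the most upstream start, took 41.6% and 41.4% of the TPM but only 17.4% and 17.8% of the reads, because short transcripts weigh more per read in TPM. By reads the leading transcript differed between the libraries. Igf2-202 led in replicate 1, with 30.4% against 28.1% for Igf2-205, a coding transcript of 4722 bases. Igf2-205 led in replicate 2, with 29.0% against 27.1% for Igf2-202. Both Igf2-202 and Igf2-203 code for 180 residues.

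The receptor that clears Igf2, Igf2r (ENSMUSG00000023830.14, chromosome 17, 12682406 to 12769664, minus strand), is expressed from the maternal copy in most tissues and from both copies in neurons. Igf2r stood at 15.8 TPM in replicate 1 and 16.0 TPM in replicate 2, nearly all of it, 99.3% and 97.8%, from the full-length Igf2r-201, which codes for 2483 residues. Airn, the noncoding RNA that begins inside Igf2r on the other strand and silences the paternal Igf2r, stood at 2.31 and 3.30 TPM on 41 and 62 reads. Igf2r was 6.85-fold and 4.84-fold above Airn, and this ratio had the widest spread of the 11 partner pairs, 2.52 ± 0.35 on the log2 scale (n = 2). Airn is known as a long, mostly unspliced RNA, while the annotated transcripts here are spliced forms, of which the longest, Airn-205, has 1375 bases.

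In the Dlk1-Dio3 cluster on chromosome 12 the noncoding Meg3 of the maternal copy was the most abundant member. Meg3 (ENSMUSG00000021268.17, 109541001 to 109571726, plus strand), a long noncoding RNA abundant in neurons, stood at 470 TPM in replicate 1 and 444 TPM in replicate 2. Meg3 ranked 4 among the 10155 long noncoding genes. Rian, the host of a series of small nucleolar RNAs, stood at 58.4 and 51.9 TPM, and Mirg, the host of a large group of microRNAs, at 9.61 and 9.93 TPM. The noncoding RNAs were thus ordered Meg3, Rian, Mirg in both libraries, with Meg3 8.05-fold and 8.55-fold above Rian. Dlk1 (109452823 to 109463336, plus strand), a transmembrane ligand related to Notch ligands and expressed from the paternal copy, stood at 73.3 and 68.6 TPM. Meg3 was 6.42-fold and 6.47-fold above Dlk1, at 2.69 ± 0.01 on the log2 scale (n = 2). Dlk1-205, the transcript that codes for the full protein of 385 residues, took 52.0% and 52.9% of the gene's TPM.

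The remaining coding genes of that cluster were low. Rtl1, a gene derived from a retrotransposon and needed in the placenta, was at 0.82 TPM in replicate 1 and 0.91 TPM in replicate 2. Dio3, which encodes an enzyme that inactivates thyroid hormone, was at 0.36 and 0.59 TPM on 13 and 26 reads. The span from Dlk1 to Dio3, 828 kb, also wholly contains 112 other annotated genes, among them 67 microRNAs and 23 small nucleolar RNAs. No small RNA gene of the span was detected in these libraries of polyadenylated RNA, which do not measure mature small RNAs. Of the other genes in the span, 2 were detected, the highest being Gm37899 at 2.64 and 2.51 TPM, an unclassified gene on the same strand between Rian and Mirg.

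The Snrpn-Ube3a cluster on chromosome 7, the counterpart of the region lost in Prader-Willi and Angelman syndromes, was active as a whole, with all 6 of its members detected. Snrpn (ENSMUSG00000102252.5, 59982495 to 60140219, minus strand), which encodes a splicing protein of the small nuclear ribonucleoproteins and is expressed from the paternal copy, stood at 222 TPM in replicate 1 and 228 TPM in replicate 2. Snurf, a short reading frame carried on the same messenger RNA, was listed at 142 and 164 TPM. All 216 exonic bases of Snurf also belong to Snrpn, so how reads were divided over this pair is uncertain. Ndn, which encodes the growth suppressor necdin of postmitotic neurons, stood at 192 and 182 TPM. Magel2, a MAGE family gene next to it, was at 15.4 and 11.4 TPM, and Mkrn3, a ubiquitin ligase gene known for its role in the timing of puberty, was at 20.2 and 19.8 TPM. Ndn, Magel2 and Mkrn3 are single-exon genes of the paternal copy that lie side by side, and Ndn exceeded the others in both libraries.

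Ube3a (ENSMUSG00000025326.12, 59228750 to 59311536, plus strand), the ubiquitin ligase gene mutated in Angelman syndrome, is expressed from both copies in most cells and from the maternal copy in mature neurons. Ube3a stood at 155 TPM in replicate 1 and 141 TPM in replicate 2. Its estimated TPM was divided over many transcripts, and the leading one by TPM, Ube3a-209, which codes for 15 residues, took 17.9% and 20.1%. By reads the leading transcript was Ube3a-203, which codes for 870 residues, with 38.5% and 39.5% of the gene's reads. Snhg14, the long host RNA that runs antisense into Ube3a and is known to silence the paternal Ube3a in neurons, stood at 56.3 and 45.8 TPM. Snhg14 shares 1803 exonic bases with Ube3a, 8.74% of the exonic bases of Ube3a. The strand setting used in counting is not given in the sources used here, so reads in the shared bases cannot be assigned with certainty. The cluster spans 3191 kb with 258 other annotated genes, 210 of them small nucleolar RNAs and 20 microRNAs, and no small RNA gene among them was detected.

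Snrpn showed a further feature in its transcripts. Snrpn-201, from the start shared with Snurf, took 87.9% of the gene's TPM in replicate 1 and 84.5% in replicate 2. Snrpn-202, from a start 135.1 kb further upstream, took 12.1% and 15.5%. Both transcripts code for the same number of residues, 240, and upstream exons of this gene are known to be used in brain. RefSeq (build GRCm38.p6) lists 4 starts for Snrpn. The 250 bases before the most used start and before upstream starts are shown to compare their sequence, 5′ to 3′ on the gene's strand in lower case:
Snrpn, start of Snrpn-201 (chr7:60005200-60005449, minus strand): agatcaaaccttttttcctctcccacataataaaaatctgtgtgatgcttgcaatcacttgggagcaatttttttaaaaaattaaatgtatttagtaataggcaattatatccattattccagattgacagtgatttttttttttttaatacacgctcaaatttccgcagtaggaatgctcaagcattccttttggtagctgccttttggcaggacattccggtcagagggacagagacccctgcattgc
Snrpn, start of Snrpn-202 (chr7:60140226-60140475, minus strand): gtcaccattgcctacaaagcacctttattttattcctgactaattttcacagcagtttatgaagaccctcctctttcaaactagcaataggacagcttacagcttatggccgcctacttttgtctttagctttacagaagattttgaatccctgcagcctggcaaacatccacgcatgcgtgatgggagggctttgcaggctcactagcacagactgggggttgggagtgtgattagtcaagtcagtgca
Snrpn, most upstream start (chr7:60450178-60450427, minus strand): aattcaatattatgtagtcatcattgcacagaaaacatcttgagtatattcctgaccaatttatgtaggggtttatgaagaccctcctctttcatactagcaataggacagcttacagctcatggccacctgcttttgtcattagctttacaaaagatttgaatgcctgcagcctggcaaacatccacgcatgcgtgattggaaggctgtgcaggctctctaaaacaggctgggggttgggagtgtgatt
In a global alignment the 250 bases before the start of Snrpn-202 and before the most upstream start had 204 identical positions, 81.6% of the window. The start of Snrpn-201 had 135 identical positions with that of Snrpn-202, or 54.0%, and 138 with the most upstream one, or 55.2%. The upstream windows thus resemble each other more than either resembles the window of the most used start. The windows hold few CpG dinucleotides, 3 at the start of Snrpn-201, 3 at that of Snrpn-202 and 2 at the most upstream one, against a median of 6 over all 32851 promoter windows of the same length.

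Mest (ENSMUSG00000051855.15, chromosome 6, 30723547 to 30748465, plus strand), also called Peg1, encodes an enzyme of the alpha/beta hydrolase family and is expressed from the paternal copy. Mest stood at 469 TPM in replicate 1 and 458 TPM in replicate 2. Copg2, a coat protein gene whose end overlaps that of Mest on the other strand, stood at 28.6 and 25.5 TPM, so Mest was 16.4-fold and 17.9-fold above it. The genes share 912 exonic bases, 17.8% of those of Copg2 and 23.1% of those of Mest. Transcripts of Mest that begin 14.5 kb downstream of the first annotated start took 97.2% and 97.5% of its TPM. The leading one, Mest-211, took 93.9% and 94.5%. Transcripts from the start 9.9 kb downstream of the first one took 0.05% and 0.21%.

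The 250 bases before these starts are shown because the used start is the methylation-marked promoter of the locus in textbook accounts. Capitals mark the hexamer TGCCGC, read on either strand (GCGGCA is its reverse complement), which is known as the core of the sequence bound by ZFP57 when methylated.
Mest, used start (chr6:30737800-30738049, plus strand): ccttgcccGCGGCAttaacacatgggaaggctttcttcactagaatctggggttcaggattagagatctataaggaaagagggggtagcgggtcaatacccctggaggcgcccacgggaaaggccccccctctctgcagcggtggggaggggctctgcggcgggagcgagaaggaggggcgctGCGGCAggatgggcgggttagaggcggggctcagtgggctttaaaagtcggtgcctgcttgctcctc
Mest, upstream start (chr6:30733256-30733505, plus strand): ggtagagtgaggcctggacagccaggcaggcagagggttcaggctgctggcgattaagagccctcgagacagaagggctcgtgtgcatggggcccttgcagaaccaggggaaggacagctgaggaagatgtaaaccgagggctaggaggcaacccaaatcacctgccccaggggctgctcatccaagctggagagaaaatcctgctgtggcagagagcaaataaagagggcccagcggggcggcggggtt
The window of the used start holds 14 CpG dinucleotides and 2 copies of the hexamer, and that of the upstream start 7 and none. Over all 32851 promoter windows of the RefSeq table, 8.68% hold at least 1 copy. Of the members, 33 of 41 matched that table with 49 promoters, and 7 of the 49, or 14.3%, hold the hexamer: 2 overlapping windows of Mest and 1 each of Zdbf2, Copg2, Zim1, Plagl1 and Meg3. A match is a description of the letters in this window only. Member promoters had a median of 10 CpG dinucleotides and a GC content of 54.8%, against 6 and 52.4% for all promoters.

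Grb10 (ENSMUSG00000020176.17, chromosome 11, 11930508 to 12038683, minus strand) encodes an adaptor protein that dampens insulin and growth factor receptor signals. In the mouse it is expressed from the maternal copy through its upstream promoter in most tissues and from the paternal copy through downstream promoters in neurons. Grb10 stood at 263 TPM in replicate 1 and 276 TPM in replicate 2. Grb10-201, which begins at the upstream promoter and codes for 596 residues, took 95.9% and 95.5% of the TPM. Grb10-203, which begins 10.7 kb downstream of the first annotated start and codes for 541 residues, took 3.44% and 1.99% on 787 and 605 reads, with a posterior SD of 160 and 135 reads given in the deposited tables. The upstream start therefore received nearly all of the estimated signal in both libraries. The windows before both starts are shown for their difference in base composition:
Grb10, upstream start (chr11:12037421-12037670, minus strand): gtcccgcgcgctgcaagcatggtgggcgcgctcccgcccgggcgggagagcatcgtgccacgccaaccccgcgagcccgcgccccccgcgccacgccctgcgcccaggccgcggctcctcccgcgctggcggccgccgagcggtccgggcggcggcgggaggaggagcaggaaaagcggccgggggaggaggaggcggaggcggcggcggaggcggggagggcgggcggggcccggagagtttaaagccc
Grb10, downstream start (chr11:12027972-12028221, minus strand): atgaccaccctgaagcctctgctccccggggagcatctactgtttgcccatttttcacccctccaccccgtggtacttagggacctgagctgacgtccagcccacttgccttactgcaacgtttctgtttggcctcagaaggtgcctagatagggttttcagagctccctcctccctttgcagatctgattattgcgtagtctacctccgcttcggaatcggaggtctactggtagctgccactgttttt
The upstream window holds 40 CpG dinucleotides and is 81.2% GC, a number of CpG that 1.31% of all promoter windows reach. The downstream window holds 8 and is 54.0% GC, and neither holds the hexamer.

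Inpp5f (ENSMUSG00000042105.18, chromosome 7, 128611328 to 128696425, plus strand) encodes a phosphoinositide phosphatase, and shorter transcripts from promoters inside the gene are expressed from the paternal copy in brain. Inpp5f stood at 120 TPM in replicate 1 and 112 TPM in replicate 2. Inpp5f-208, which begins 76.2 kb downstream of the first start and codes for 441 residues, took 84.9% of the TPM in each library. Inpp5f-203, from a start 77.2 kb downstream, took a further 7.35% and 7.82%. The full-length Inpp5f-201, which codes for 1132 residues, took 6.54% and 6.10%. By reads the share of the start group of Inpp5f-201 was 11.5% and 10.8%, so the internal starts led on either scale.

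Plagl1 (chromosome 10, 13060504 to 13131694, plus strand), a zinc finger transcription factor of the paternal copy also known as Zac1, stood at 75.3 TPM in replicate 1 and 60.5 TPM in replicate 2. Transcripts from the start group 30.2 kb downstream of the first annotated start took 97.8% and 97.3%, led by Plagl1-202 with 69.9% and 70.8%. Zdbf2 (chromosome 1, 63273265 to 63314576, plus strand), a zinc finger gene of the paternal copy, stood at 30.7 and 24.3 TPM. Its short transcript Zdbf2-203 of 611 bases took 77.3% and 77.5% of the TPM, while the full-length Zdbf2-202, which codes for 2493 residues, took 87.8% and 87.6% of the reads.

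The methylation mark of Zdbf2 is set by a transcript that starts far upstream and is known from the earliest stages of development. RefSeq lists that start 72.9 kb upstream of the annotated Zdbf2 gene, and the annotation lists the noncoding gene Platr12 beginning 45 bases before it. Platr12 had 0 reads in both libraries, which allows up to 3 reads, or 0.40 TPM in replicate 1 and 0.31 TPM in replicate 2. The window before that start is shown because it holds 3 copies of the hexamer (capitals), the most of any member promoter, beside the start that the detected Zdbf2 transcripts use, which holds none:
Zdbf2, upstream start (chr1:63200108-63200357, plus strand): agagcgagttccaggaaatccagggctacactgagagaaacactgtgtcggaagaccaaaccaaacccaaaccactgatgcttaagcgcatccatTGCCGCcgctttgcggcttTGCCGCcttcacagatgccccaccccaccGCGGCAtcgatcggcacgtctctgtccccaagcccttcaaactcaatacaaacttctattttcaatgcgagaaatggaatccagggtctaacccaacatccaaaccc
Zdbf2, used start (chr1:63273019-63273268, plus strand): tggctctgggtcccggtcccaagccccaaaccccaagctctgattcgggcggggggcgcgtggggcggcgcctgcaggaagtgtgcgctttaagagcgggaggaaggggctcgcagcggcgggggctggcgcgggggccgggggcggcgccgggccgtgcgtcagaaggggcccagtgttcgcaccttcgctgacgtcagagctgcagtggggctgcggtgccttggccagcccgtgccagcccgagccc
The upstream window holds 13 CpG dinucleotides and the used one 26. RefSeq starts at which a detected member had 50% or more of its TPM in both libraries, 24 promoters of 22 genes, had a median of 13 CpG dinucleotides (range 2 to 40). The 10 starts with under 10% in both libraries had a median of 9 (range 0 to 22).

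**Figure D2:**
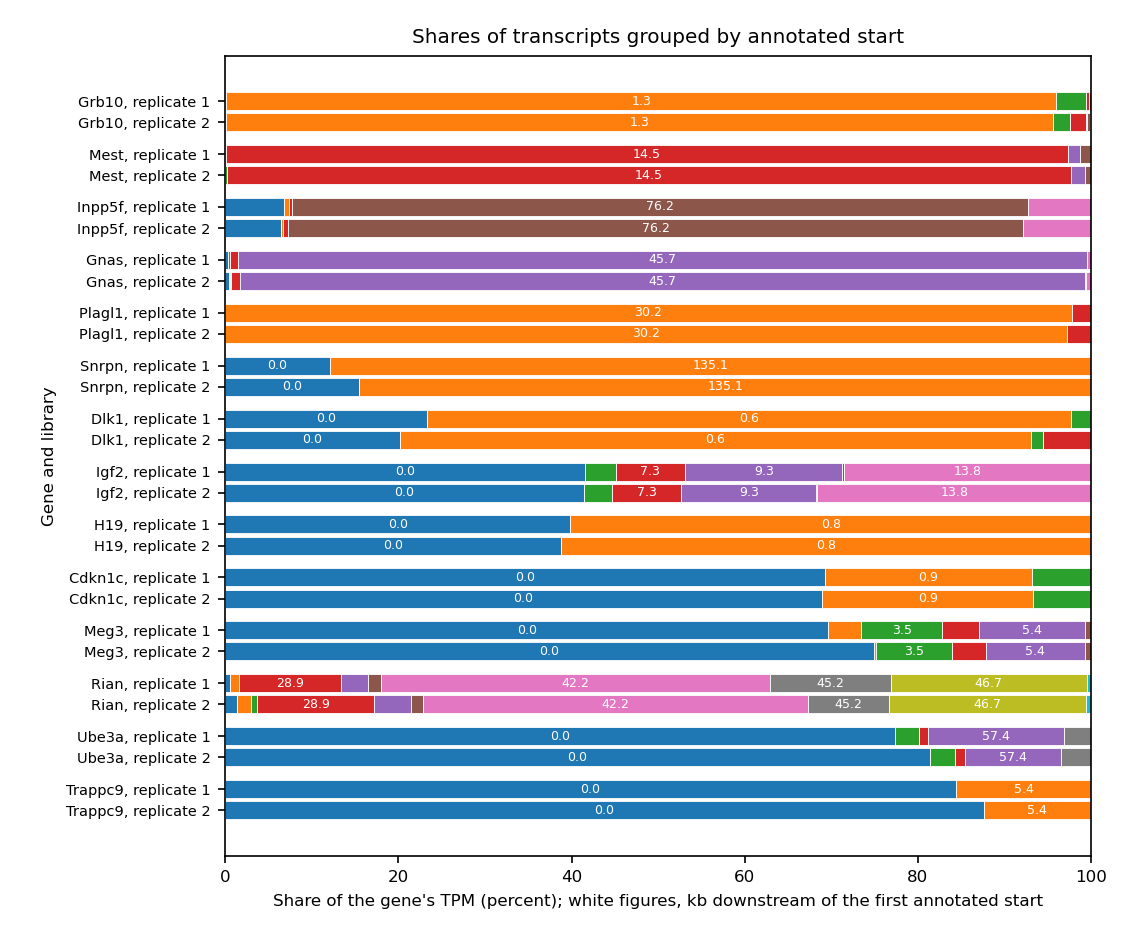
Share of a gene's TPM (percent, horizontal axis) taken by transcripts grouped by annotated start, for 14 imprinted genes in each library; colours separate start groups within a gene, in order along the gene, and white figures give the distance in kb from the first annotated start. The bars of the 2 libraries of a gene nearly coincide. Grb10, Mest, Inpp5f, Gnas, Plagl1, Snrpn, Dlk1 and, to a lesser degree, H19 are each filled mostly by a start group other than the first.

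Over all members, 295 transcripts are annotated, and 34 members have more than 1. Of the 30 such members that were detected, 28 had the same leading transcript in both libraries, and in 19 that transcript took 50% or more of the TPM in each. The median difference of the leading share between libraries was 2.36 percentage points. The largest was 42.15 points, for Peg10, a gene derived from a retrotransposon and expressed from the paternal copy. Peg10-202 took 56.5% in replicate 1 and 14.3% in replicate 2, on 400 and 111 reads with a posterior SD of 128 and 96.0. The transcripts that compete for these reads, Peg10-202 of 6667 bases and Peg10-203 of 6567 bases, start within a short distance of each other and differ little in length.

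Peg10 itself stood at 5.77 TPM in replicate 1 and 5.03 TPM in replicate 2. Sgce, which encodes a sarcoglycan and shares the promoter region with Peg10 on the other strand, stood at 47.8 and 52.8 TPM. Sgce was 8.29-fold and 10.5-fold above Peg10 although both are expressed from the paternal copy. Ppp1r9a, an actin-binding protein of neurons, stood at 21.3 and 23.9 TPM, and Asb4, a ubiquitin ligase adaptor of the maternal copy, at 11.7 and 16.9 TPM. Between them lie other genes of the cluster, of which Pon2, a lactonase gene, was highest at 22.8 and 25.0 TPM.

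In the Peg3 cluster at the start of chromosome 7, Peg3 (ENSMUSG00000002265.16, 6703892 to 6730431, minus strand), a large zinc finger gene of the paternal copy, stood at 79.4 TPM in replicate 1 and 82.6 TPM in replicate 2. Usp29, a gene of a ubiquitin-specific protease that starts next to Peg3 on the other strand, stood at 14.5 and 13.7 TPM. Peg3 exceeded Usp29 5.49-fold and 6.02-fold. The leading transcript of Usp29, Usp29-206, with 43.8% and 53.2% of the TPM, is a retained intron without a reading frame. Zim1, the maternally expressed zinc finger gene of the cluster, was at 0.66 and 0.87 TPM.

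Other members are single genes or pairs. Peg13, a noncoding RNA inside an intron of Trappc9 that is expressed from the paternal copy in brain, stood at 51.8 TPM in replicate 1 and 48.2 TPM in replicate 2. Its host Trappc9, a gene of vesicle transport, stood at 30.4 and 31.1 TPM, so Peg13 was 1.70-fold and 1.55-fold above it per length. Impact, a regulator of translation under amino acid stress that is abundant in neurons, stood at 30.6 and 36.9 TPM. Zrsr1, a retrogene of a splicing factor inside Commd1, stood at 4.59 and 3.49 TPM, and 80.1% and 51.7% of it was assigned to a transcript annotated as a pseudogene. Zrsr1 shares 412 exonic bases with Commd1 on the other strand, which stood at 254 and 274 TPM. Rasgrf1, an exchange factor of Ras expressed mainly after birth, was lowest of the 41 at 0.15 and 0.21 TPM on 10 and 21 reads.

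The median level of the 7 noncoding members exceeded that of the 34 coding members in both libraries, while the order is the opposite for genes in general. The median was 51.8 TPM in replicate 1 and 48.2 TPM in replicate 2 for noncoding members, and 30.7 and 34.0 TPM for coding ones. On log2(TPM + 0.1) coding minus noncoding was -0.75 in replicate 1 and -0.50 in replicate 2 (mean -0.63 ± 0.18, n = 2), against 5.51 ± 0.06 over all coding and long noncoding genes. The order of the members' medians turned with the choice of genes: it was 0.41 with only detected members and 0.45 with the M4 annotation, which lacks Peg13. Noncoding members ranged from Airn at a mean of 2.80 TPM through Kcnq1ot1, Mirg, Peg13, Rian and H19 to Meg3 at 457 TPM. By the parental copy known to be expressed, the 23 paternal members had a median of 30.7 and 36.9 TPM, the 11 maternal members 15.8 and 16.9 TPM, and the 7 whose copy depends on tissue or transcript 120 and 112 TPM. Igf2r, expressed from both copies in neurons, was counted as maternal, and its 15.8 TPM is the maternal median in replicate 1. These groups overlap widely: the lowest and the highest mean were 0.18 TPM (Rasgrf1) and 3354 TPM (Nnat) among paternal members, 0.34 (Slc22a18) and 754 TPM (Cdkn1c) among maternal ones, and 27.1 (Copg2) and 1098 TPM (Gnas) among the rest.

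Between the pools no member differed by 1.5-fold beyond counting error. The log2 ratio of replicate 1 to replicate 2 was taken from reads scaled by TMM, with an exact 95% interval that covers counting error only, since reads are not independent molecules where no molecular identifiers are stated, and a gene was called at 1.5-fold or more with an interval excluding equality. All 41 members had enough reads to be compared. None was called higher in replicate 1, where 2.83% of the 19885 genes compared were called, and none higher in replicate 2, where 4.36% were called. Calls are rare among abundant genes, and of the 5132 genes at or above the level of the median member 0.195% were called higher in replicate 1 and 0.292% in replicate 2. The median ratio of the members was 0.004 and that of all genes -0.013. The median absolute ratio was 0.12 for the 36 detected members and 0.11 for the 15600 genes detected. With 1 library for each pool no test across pools was possible.

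Counting error alone left room for smaller differences. The interval excluded equality for 21 members, 14 of them higher in replicate 1 and 7 higher in replicate 2. That is 51.2% of the members, beside 45.8% of the genes at or above the level of the median member and 35.6% of all detected genes, so nothing particular to the members is read from the count. Toward replicate 2 lay H19 at -0.53 (-0.62 to -0.44), Asb4 at -0.48 (-0.62 to -0.34), Igf2 at -0.42 (-0.49 to -0.36) and Cdkn1c at -0.30 (-0.32 to -0.27). Kcnq1ot1, Sgce and Peg3 followed between -0.14 and -0.06. Toward replicate 1 lay Magel2 at 0.46 (0.35 to 0.58), Zdbf2 at 0.38 (0.28 to 0.47) and Plagl1 at 0.32 (0.26 to 0.37), and 11 others between 0.06 for Mest and 0.24 for Peg10. Gnas, at -0.00 (-0.02 to 0.02), and Grb10, at -0.02 (-0.05 to 0.00), did not differ beyond counting error. When the libraries were scaled by their ERCC spike-in totals, the median ratio of all genes moved to -0.28 and 11 of the 14 members that were higher in replicate 1 fell below equality. Of these 11, Rian and Peg10 had intervals that included equality. Under that scaling H19, Igf2, Asb4 and Zim1 passed the 1.5-fold limit toward replicate 2, where 10.7% of all genes did so. Since that scaling moves every gene toward replicate 2, the members already on that side could not change direction under it.

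**Figure D3:**
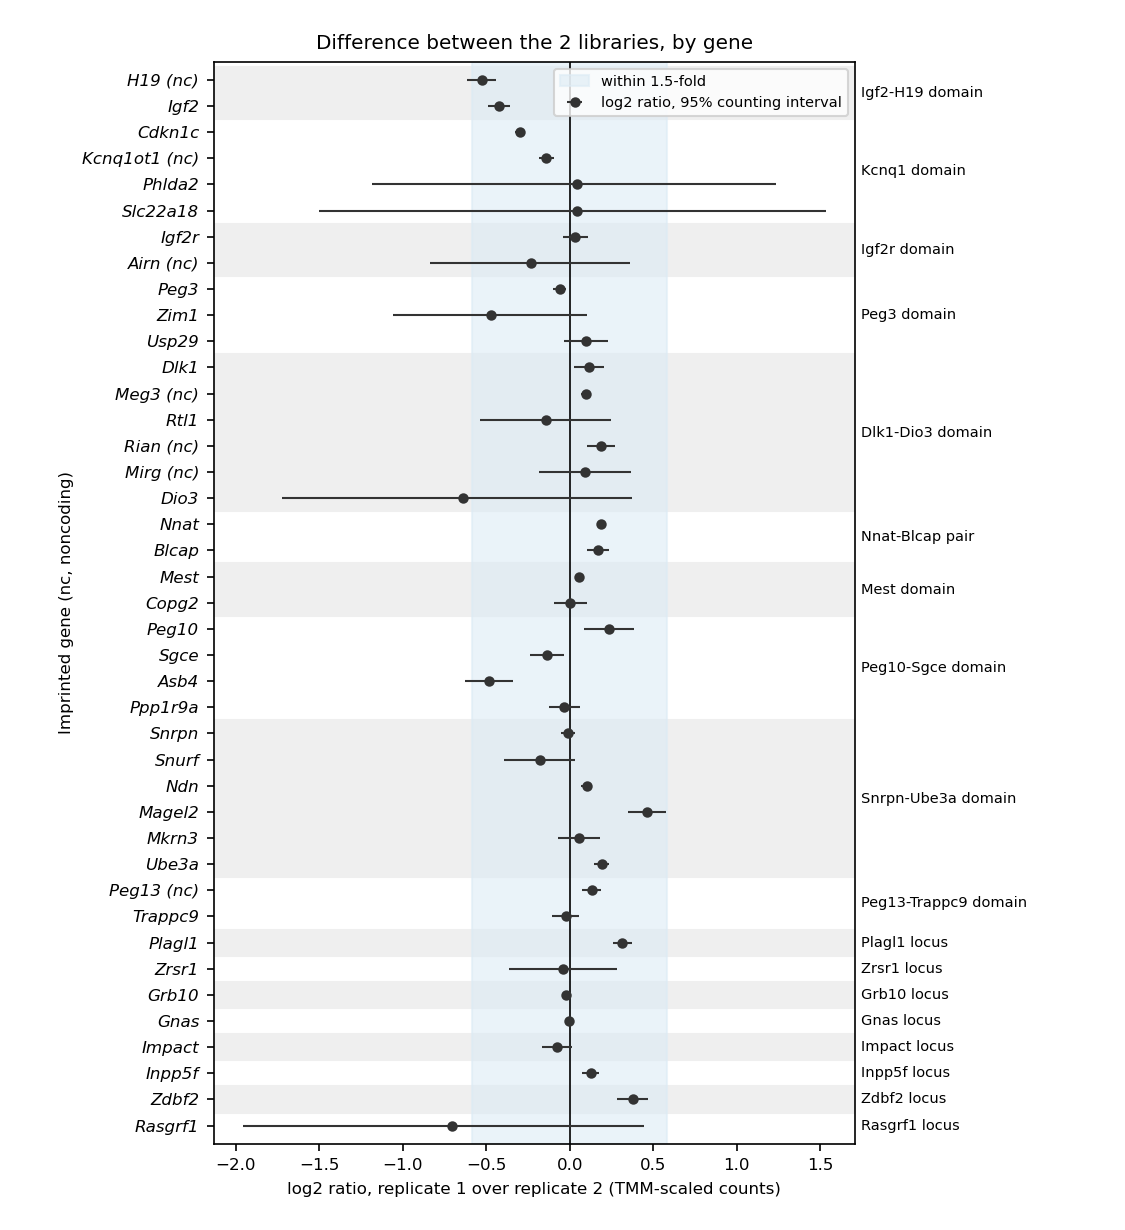
Log2 ratio of replicate 1 to replicate 2 for each imprinted gene (points; horizontal axis, TMM-scaled counts) with its 95% counting interval (lines), grouped by cluster; the blue band is the range within 1.5-fold. H19 and Igf2 lie together at -0.53 and -0.42, and the wide intervals belong to genes with few reads such as Phlda2, Slc22a18, Dio3 and Rasgrf1.

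Markers of several non-neural tissues, though not of all, lay on the same side as Igf2 and H19. For scale, of the 19885 genes compared, 3330 were lower in replicate 1 beyond counting error and 3085 were higher. Of 12 markers of mesenchyme and meninges, all detected, 11 were lower in replicate 1 beyond counting error and none higher. Their levels ran from Foxd1 at a mean of 4.34 TPM to Col3a1 at 450.0 TPM, none was at 0, their median log2 ratio was -0.40, and their summed level was 1111 TPM in replicate 1 and 1566 TPM in replicate 2. Of 6 cartilage markers all 6 were lower in replicate 1, with a summed level of 218 and 298 TPM; Matn1 had 0 reads in replicate 1 and 31 in replicate 2. Of 8 skeletal muscle markers, 2 were detected and 5 had enough reads to be compared; their median ratio was -0.03, with Ttn higher in replicate 1 beyond counting error and none lower. Of the 10 endothelial markers 7 were lower in replicate 1 and 1, the receptor gene Kdr, was higher at 0.13 (0.06 to 0.21). Endothelial markers had a median of -0.23 and erythroid markers one of -0.17, while 14 neuron markers had a median of 0.09 and 12 markers of neural progenitors one of 0.05. The neural markers went both ways beyond counting error. Of the neuron markers 9 were higher in replicate 1 and 3 lower, and of the progenitor markers 6 were higher and 3 lower. The progenitor marker Pax6 was called higher in replicate 1, at 57.2 TPM against 16.9 TPM in replicate 2. Choroid plexus markers went both ways, with Ttr, a thyroid hormone carrier, at 37.8 and 13.5 TPM and Aqp1, a water channel, at 3.79 and 6.19 TPM. The part of these tissues in the values of Igf2, H19, Cdkn1c and Asb4 was not tested, and in bulk tissue fewer cells of a type and less RNA per cell cannot be told apart.

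**Figure D4:**
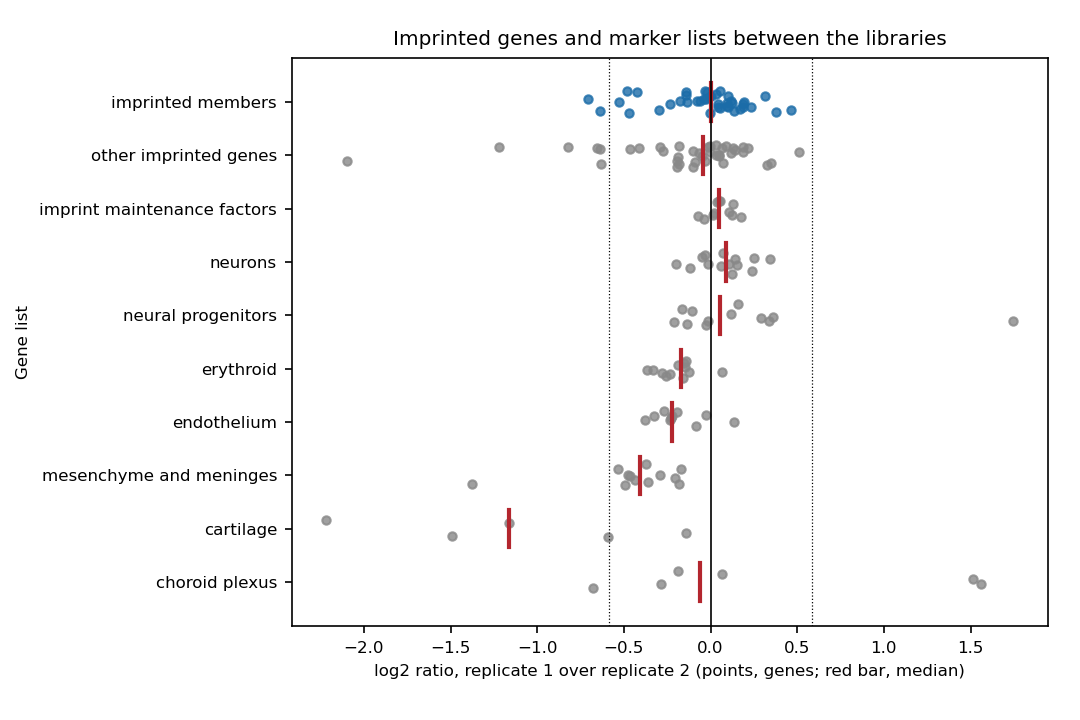
Log2 ratio of replicate 1 to replicate 2 for the imprinted genes (blue points) and for the genes of other lists (grey points), with the median of each list as a red bar and dotted lines at 1.5-fold; vertical scatter within a row has no meaning. The median of the imprinted genes lies near 0 and that of the mesenchyme and meninges list at -0.40; genes under 10 reads in both libraries, and Matn1, whose ratio is not finite, are not drawn.

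The deposited tables also quantify the same reads against the older annotation GENCODE M4, which changes the set of transcripts to which reads are assigned. Of the 40 members in both annotations, 35 had 1 TPM or more in both libraries under either annotation and were compared on log2(TPM + 0.1). Usp29 and Ube3a were 1.5-fold or more higher with M21 in both libraries, a direction called for 4.65% of the 14936 genes compared. Ndn and Peg10 were 1.5-fold or more lower, a direction called for 1.82%. Peg10 was no longer called with a pseudocount of 1 or a limit of 2-fold, and Zrsr1, at 4.59 and 3.49 TPM against 2.39 and 2.46 TPM, passed the limit in replicate 1 alone. The median difference was -0.07 in each library for the members and for all genes alike. Peg13 has no entry in M4.

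These 4 genes differed in their reads, their model length or both. Usp29 had 833 reads in replicate 1 and 1001 in replicate 2 with M21 but 91 and 90 with M4, and its level was 14.5 and 13.7 TPM against 2.05 and 1.60 TPM. Its leading transcript, the retained intron Usp29-206, is absent from M4. The ratio of Peg3 to Usp29 was 2.52 on the log2 scale with M21 and 5.53 with M4. Ndn had almost the same reads under both, 12860 and 15412 against 12825 and 15382, while its annotated length was 3694 bases with M21 and 1652 with M4. Its level was accordingly 192 and 182 TPM against 466 and 442 TPM. Ube3a had 8085 and 9108 reads against 5885 and 6516, and 155 and 141 TPM against 66.5 and 58.2 TPM. Peg10 had 703 and 768 reads under both, at 5.77 and 5.03 TPM against 9.02 and 8.60 TPM. With M4 the level of Ndn lay far above that of Ube3a, and with M21 the genes lay closer together.

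**Figure D5:**
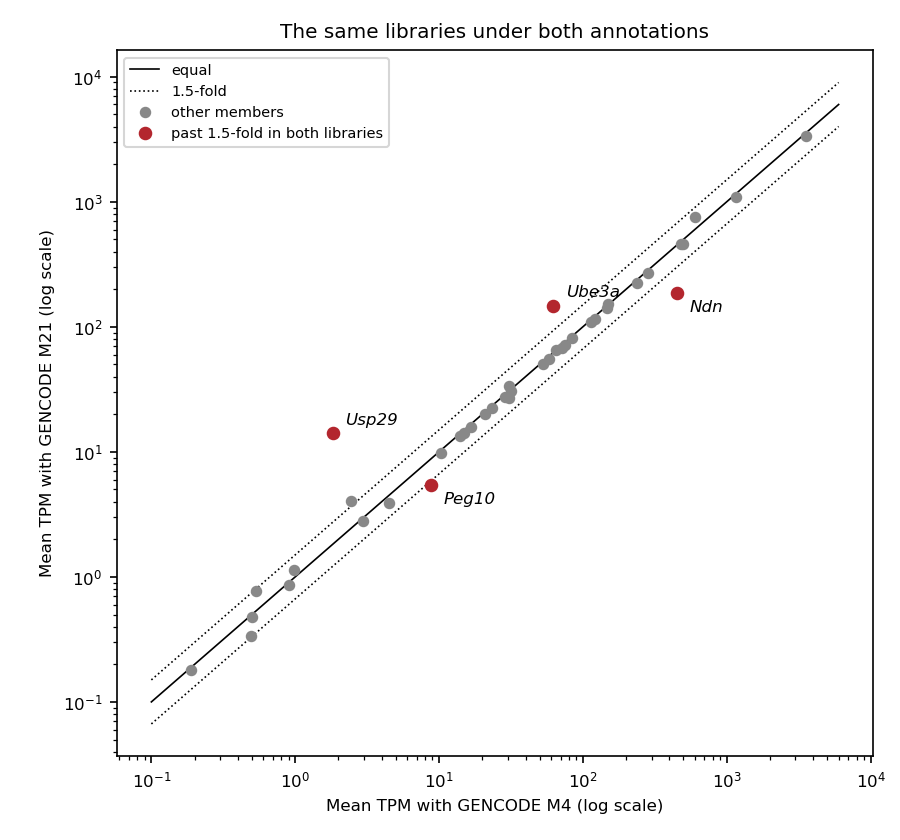
Mean TPM of 40 imprinted genes over both libraries with GENCODE M21 (vertical, log axis) against GENCODE M4 (horizontal, log axis); the solid line marks equality and the dotted lines 1.5-fold. Usp29, Ube3a and, by its mean, Zrsr1 lie above the band and Ndn and Peg10 below it.

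Proteins that keep imprints through development were also expressed. Of a list of 13 such factors, 11 were detected, with a median of 86.0 TPM in replicate 1 and 85.4 TPM in replicate 2, and none was called between the libraries. Trim28, the corepressor that ZFP57 recruits, was highest at 321 and 294 TPM. Zfp57, the zinc finger protein that binds the methylated hexamer, stood at 145 and 137 TPM. Zfp445, which acts beside it, stood at 103 and 97.1 TPM, and the maintenance methyltransferase Dnmt1 at 86.0 and 85.4 TPM. Dppa3 and Zfp42, factors of the egg and the early embryo, had at most 1 read in each library. Of 44 further genes reported as imprinted in the mouse, often in a single tissue such as placenta, 33 were detected, or 75.0%, with a median of 10.5 and 9.10 TPM. The highest of them was Nap1l4 at 263 and 278 TPM. Of the 44, 40 had enough reads to be compared, and 3 of them were called higher in replicate 2 and 0 higher in replicate 1. Over all genes compared, 4.36% were called higher in replicate 2 and 2.83% in replicate 1. Nothing particular to this list is therefore read from the count. The genes called were Th, the rate-limiting enzyme of dopamine synthesis, at 12.4 and 22.3 TPM, and Cobl, an actin regulator, at 2.25 and 3.15 TPM. The last was Kcnk9, a potassium channel, at 0.50 and 0.80 TPM, below the detection limit.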

How the data were processed

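Polyadenylated RNA of 2 pools of E12.5 midbrain was sequenced from 10 ng of RNA primed with oligo-dT, with ERCC spike-ins and tagmentation, per the labels. The authors deposited, for each library, gene and transcript tables on mm10 with GENCODE M21 and M4, per the file headers and the deposited list of files. These hold estimated counts (the expected count of reads, not scaled), TPM and FPKM (both scaled by effective length and library total by the authors) and, for transcripts, the percent of the gene's TPM, with a posterior SD of the count. Tool versions and the strand setting are not given in the sources used here. Rows naming no gene, 4.02% and 3.38% of all reads, were left out.

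Expected counts were rounded and scaled by TMM (edgeR 4.0.16, R 4.3.3). The log2 ratio of replicate 1 to replicate 2 has a Clopper-Pearson 95% interval and was taken for genes with 10 or more reads in a library. DESeq2 1.42.0 size factors were an alternative. Annotations were compared on log2(TPM + 0.1). Transcript starts within 500 bases were grouped. Promoters are the 250 bases before a start in RefSeq (GRCm38.p6), and alignments used Biopython 1.88. The ratio script was tested on simulated data. With 1 group no test between conditions exists.

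The members and lists were chosen with earlier results of these data known. All members could be named, and of their transcripts those with 10% or more of the TPM in a library. In clusters the 3 highest other genes could be named, and in other lists the highest, the lowest and those called. Outside this rule, Grb10-203, Inpp5f-201, Inpp5f-203, Airn-205, Igf2-205, Nespas, Commd1, Kcnq1, Kdr, Ttn, Platr12, Zfp57, Zfp445, Dnmt1 and Dppa3 were named after their values were seen.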

Additional observations from a re-analysis of the deposited data

How the results depend on the processing

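The scaling mattered most for the ratios between libraries. With ERCC spike-in totals 4 members passed 1.5-fold (H19, Igf2, Asb4 and Zim1, all higher in replicate 2) against 0 otherwise, and the members' median was -0.27, beside -0.28 for all genes. Under that scaling Dlk1 was at -0.15, Meg3 at -0.17, Rian at -0.080, Nnat at -0.083, Blcap at -0.10, Mest at -0.21, Peg10 at -0.034, Ndn at -0.17, Ube3a at -0.078, Peg13 at -0.14 and Inpp5f at -0.14, each the reverse of its direction with TMM, while Plagl1 stayed above equality at 0.05 with an interval that includes it. The intervals of Rian (-0.165 to 0.005) and Peg10 (-0.183 to 0.116) under ERCC scaling included equality as well. Scaling by ERCC totals shifts the ratio of every gene by the same amount. With DESeq2 size factors and with gene totals all 21 members beyond counting error kept their direction and their side of equality, as did all 20 of them in M4. Among the levels, the median on log2(TPM + 0.1) was 5.71 over detected members only, against 5.08 over all, and the summed level was 8486 TPM with M4. Coding minus noncoding was 0.41 over detected members and 0.45 with M4, against -0.63; both alternatives change which genes enter. Between annotations, Peg10 lost its call with a pseudocount of 1 and at 2-fold, and Zrsr1 gained one without replicate 2. Some partner ratios also depended on the annotation. On the log2 scale Cdkn1c to Kcnq1ot1 was 7.05 with M4 against 7.59 with M21, and Peg10 to Sgce was -2.58 against -3.22. Peg3 to Usp29 was 5.53 against 2.52, and Meg3 to Dlk1 was 2.67 against 2.69. The other pairs present in both annotations moved by less than their SD. No paired analysis was possible because there is 1 group. Few reads limit Phlda2, Slc22a18, Dio3, Rasgrf1 and Airn, and transcript shares carry only the deposited posterior SD.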
